A study of Mus musculus with 10 samples.

Results

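The genes described are 8 genes of cholesterol synthesis, namely Hmgcs1, Idi1, Fdft1, Sqle, Lss, Cyp51, Dhcr7 and Srebf2. They were taken by symbol from a table of 27343 genes, and all 8 were found and passed the filter on low counts, among 15938 genes tested. The samples were whole hippocampi of wild-type male C57BL/6J mice, 2 months old. In 5 of them the mice had received Visudyne (verteporfin, a photosensitizer) into the cisterna magna, and in the other 5 they had received vehicle. Both groups went through the photoconversion step, with 689 nm red light directed at the intact skull, which converts Visudyne and ablates meningeal lymphatic vessels. The procedure was done again 2 weeks later, the Morris water maze followed after another 2 weeks, and the hippocampus was taken 3 days after the maze. Every animal had therefore been operated and trained, with no untreated or untrained group. The libraries do not measure the lymphatic vessels themselves, and no dose of Visudyne is used here. The labels do not state that each library is 1 animal, so the p-values measure the spread between libraries.

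The brain makes almost all of its own cholesterol, because lipoproteins of the blood do not cross the blood-brain barrier. Oligodendrocytes use it for myelin and astrocytes pass it to neurons on apolipoprotein E. SREBF2 encodes the transcription factor SREBP2, which is held in the endoplasmic reticulum by INSIG proteins when sterols are plentiful. When sterols run low, SCAP escorts it to the Golgi, a pair of proteases releases it, and it switches on the genes of the synthesis pathway.

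Total counts were 34548474 to 36956138 in the Visudyne libraries and 24752362 to 41073906 in the vehicle libraries. The lowest count of any of the 8 genes in any library was 102, for Dhcr7, and the highest was 8689, for Hmgcs1. Levels are given in CPM, the count of a gene relative to its library size, with library sizes scaled by TMM, a method that sets the bulk of genes equal between libraries. In 2 Visudyne libraries, 3 and 5, the summed level of 5 choroid plexus markers was 410.7 and 295.7 CPM, against 22 to 28.6 CPM in the other Visudyne libraries and 21.8 to 32.5 CPM in vehicle. Mitochondrial genes took 42.6% to 49.3% of all counts in the Visudyne libraries and 40.4% to 44.1% in the vehicle libraries. With these genes left out none of the 8 was called either, in a fit that called 3243 of 15830 tested genes. Libraries also differed in how counts depended on the GC content of a gene. For each additional 10 percentage points of GC, log2 CPM relative to the gene's mean changed by -0.51 to 0.01 in the Visudyne libraries and by -0.017 to 0.39 in the vehicle libraries.

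The regulatory sequence upstream of these genes is shown for the gene with the most positive and the gene with the most negative difference between the groups, Hmgcs1 and Srebf2. RefSeq windows on GRCm38.p6, of 300 bases around a gene start, were given for 6 of the 8 genes. The core of the sterol regulatory element, TCACNCCAC on either strand with N any base, was found in 1 of these 6 genes, Hmgcs1, and in 1.24% of all 32851 windows. In Hmgcs1 it reads TCACCCCAC and begins 137 bases before the start. The NF-Y box CCAAT was found in a window of all 6 genes (in Dhcr7 only in window 3), against 37.4% of all windows. The GC box GGGCGG was also found in a window of all 6 genes (in Dhcr7 in windows 1 and 3), against 35.7% of all windows. A gene with several windows has more room for a match than 1 window has. The E-box CACGTG was found in 1 of the 6 genes, Dhcr7, which has 3 windows, against 7.15% of all windows. Both strands were searched for every motif, and a match is only a match of letters. A window with no match may still hold a variant of the motif, which was not searched for. In the sequences, the longest run of capitals in Hmgcs1 is the sterol element core and the short runs are NF-Y boxes, which read ATTGG on the opposite strand. Hmgcs1 lies at chr13:119690101-119690400 on the plus strand and Srebf2 at chr15:82147019-82147318 on the plus strand.
Hmgcs1: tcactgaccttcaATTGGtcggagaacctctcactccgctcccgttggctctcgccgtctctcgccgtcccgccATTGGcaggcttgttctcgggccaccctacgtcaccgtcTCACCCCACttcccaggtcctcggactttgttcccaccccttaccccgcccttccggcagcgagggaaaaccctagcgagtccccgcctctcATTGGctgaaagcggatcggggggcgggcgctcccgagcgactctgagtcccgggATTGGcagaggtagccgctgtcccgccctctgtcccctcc
Srebf2: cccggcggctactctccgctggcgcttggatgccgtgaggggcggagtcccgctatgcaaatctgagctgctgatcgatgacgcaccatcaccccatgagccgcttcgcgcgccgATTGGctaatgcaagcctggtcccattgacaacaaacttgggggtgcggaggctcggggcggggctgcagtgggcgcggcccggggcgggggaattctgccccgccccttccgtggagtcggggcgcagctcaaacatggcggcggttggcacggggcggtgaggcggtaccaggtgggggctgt

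None of the 8 genes was called between the Visudyne and vehicle hippocampi, at an adjusted p under 0.05 by edgeR's quasi-likelihood test with Benjamini-Hochberg adjustment over all tested genes. The background was 20.5% of all tested genes called, 8.98% higher and 11.5% lower. In 5 of the 8 genes (Hmgcs1, Idi1, Sqle, Lss, Cyp51) the estimate was above 0 and in 3 (Fdft1, Dhcr7, Srebf2) below 0. The median log2 fold change of the 8 was 0.09, against 0.01 over all tested genes. Without adjustment 1 of the 8, Hmgcs1, had a p under 0.05, as had 39.8% of all tested genes. DESeq2 called 1, also Hmgcs1, and limma-voom 0, against 4480 and 3421 of all 15938 tested genes. The groups overlapped in all 8 genes, whereas 5.25% of all tested genes had every Visudyne library above every vehicle library and 7.22% had every one below. In whole tissue, fewer cells of a type and less RNA per cell cannot be told apart.

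**Figure D1:**
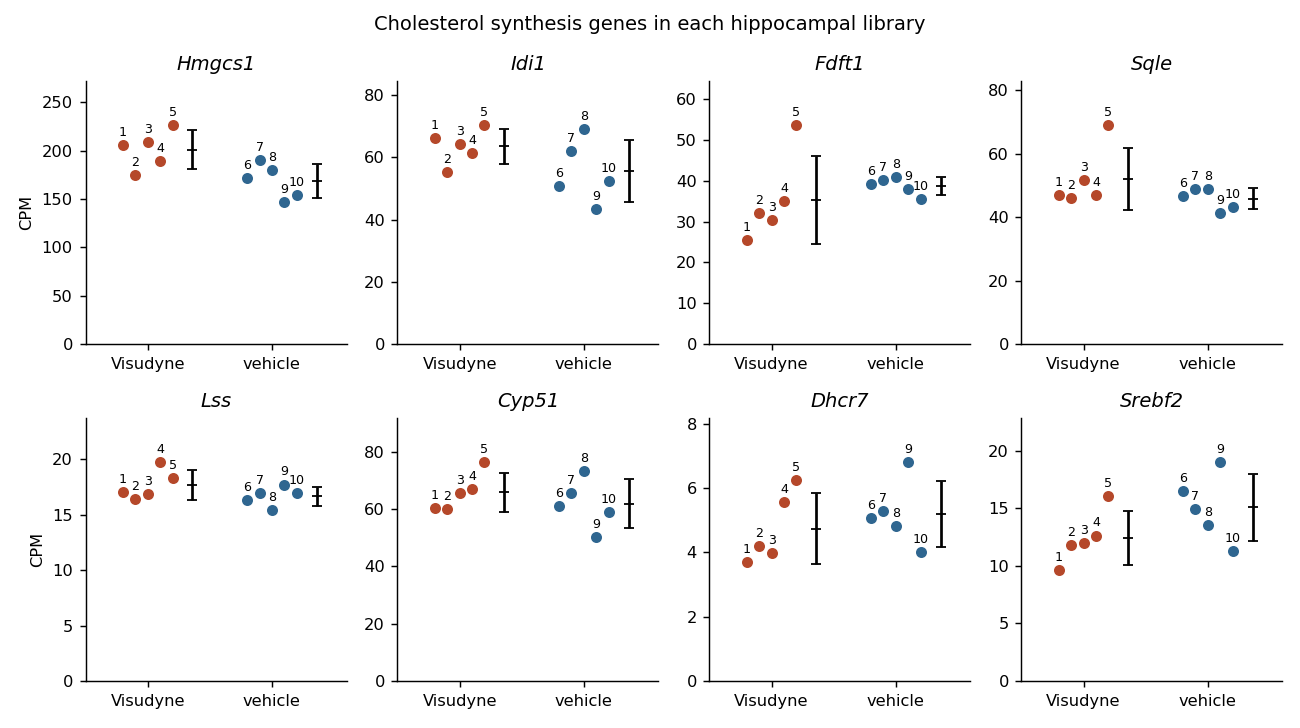
CPM of the 8 cholesterol synthesis genes in 5 Visudyne libraries (left of each panel) and 5 vehicle libraries (right), with 1 numbered point per library (the number is the replicate) and black bars for mean and SD. The groups overlap in all 8 panels, and Visudyne 5 is the highest Visudyne library in 7 of them.

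Hmgcs1 encodes the cytosolic synthase that condenses acetyl-CoA and acetoacetyl-CoA into HMG-CoA. It lies on GRCm38 chromosome 13, from 119690379 to 119708260 (ENSMUSG00000093930). Its levels were 206.1, 174.6, 208.5, 188.8 and 226.6 CPM in Visudyne libraries 1 to 5, against 171.8, 190.1, 179.8, 147 and 154.2 CPM in vehicle libraries 6 to 10. All 5 Visudyne libraries were above the vehicle mean, but Visudyne 2 and 4 lay within the vehicle range. The means were 200.9 ± 19.9 CPM in the Visudyne libraries and 168.6 ± 17.8 CPM in the vehicle libraries (SD, n = 5 each). The log2 difference was 0.25 (SE 0.087, edgeR adjusted p = 0.055). The fold was 1.19, with a 95% interval of 1.05 to 1.36. Without Visudyne 2 the gene was called (log2 fold change 0.30, edgeR adjusted p = 0.049), and over the 19 alternative settings its adjusted p was 0.026 to 0.80. The fit without Visudyne 2 called 1826 of 16226 tested genes.

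Idi1 encodes the isomerase that turns isopentenyl pyrophosphate into dimethylallyl pyrophosphate, the starter unit of isoprenoid chains. It also lies on chromosome 13, from 8885501 to 8892451 (ENSMUSG00000058258). It stood at 66.2, 55.4, 64.3, 61.5 and 70.4 CPM in Visudyne 1 to 5, against 50.9, 62.1, 69, 43.5 and 52.3 CPM in vehicle 6 to 10. The vehicle libraries spread more widely than the Visudyne libraries, and 4 of 5 Visudyne libraries were above the vehicle mean. On the log2 scale the fold change was 0.19 (SE 0.11, edgeR adjusted p = 0.22). Of the 31-base words of its longest transcript, 22.4% also occur in transcripts of other genes, chiefly the gene models Gm13502, Gm35570, Gm8911 and Gm7654. Of these, Gm13502 is in the table, with 63 to 184 counts against 1327 to 3046 for Idi1, so part of the count of Idi1 depends on how shared reads were assigned.

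Fdft1 encodes squalene synthase, which joins a pair of farnesyl pyrophosphates in the first step committed to sterols. It lies on chromosome 14, from 63145150 to 63179578 (ENSMUSG00000021273), and overlaps Ctsb on the opposite strand. It stood at 25.5, 32.1, 30.4, 35 and 53.7 CPM in Visudyne 1 to 5, against 39.2, 40.2, 41, 37.9 and 35.5 CPM in vehicle 6 to 10. Visudyne 1 to 4 were all below every vehicle library, and Visudyne 5 was above every one. The means were 35.3 ± 10.8 CPM in the Visudyne libraries and 38.8 ± 2.13 CPM in the vehicle libraries (SD, n = 5 each), with coefficients of variation of 30.6% in Visudyne and 5.51% in vehicle. The estimate of the log2 fold change was -0.13 (SE 0.16, edgeR adjusted p = 0.55). Without Visudyne 5 it was -0.34 and the gene was called (edgeR adjusted p = 0.017), in a fit that called 5047 of 16017 tested genes. Fdft1 shares 16.5% of its 31-base words with the gene model Gm6781, which had 0 to 7 counts.

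Sqle encodes squalene epoxidase, which oxidizes squalene and is a step that limits the flux of the pathway. It lies on chromosome 15, from 59315077 to 59331192 (ENSMUSG00000022351). It stood at 47.1, 46, 51.8, 47 and 69.2 CPM in Visudyne 1 to 5, against 46.8, 48.9, 49, 41.4 and 43.3 CPM in vehicle 6 to 10. Visudyne 5 stood apart from all other libraries, while Visudyne 1, 2 and 4 lay within the vehicle range. Over all libraries the log2 fold change was 0.19 (SE 0.11, edgeR adjusted p = 0.21), and it was 0.056 without Visudyne 5.

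Lss encodes lanosterol synthase, which folds oxidosqualene into the ring system of sterols. It lies on chromosome 10, from 76531588 to 76557138 (ENSMUSG00000033105). It stood at 17, 16.4, 16.9, 19.8 and 18.4 CPM in Visudyne 1 to 5, against 16.3, 17, 15.4, 17.7 and 16.9 CPM in vehicle 6 to 10. It varied least of the 8 genes, with a coefficient of variation of 7.82% in Visudyne and 5.14% in vehicle. Its log2 fold change was 0.09 (SE 0.069, edgeR adjusted p = 0.37), and the 95% interval of the fold was 0.956 to 1.18.

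Cyp51 encodes lanosterol demethylase, a cytochrome P450 enzyme. It lies on chromosome 5, from 4081145 to 4104746 (ENSMUSG00000001467), and overlaps Akap9 on the opposite strand. It stood at 60.4, 59.8, 65.4, 67 and 76.5 CPM in Visudyne 1 to 5, against 60.9, 65.5, 73.3, 50.2 and 59 CPM in vehicle 6 to 10. Of the Visudyne libraries, only Visudyne 5 exceeded the vehicle range. For Cyp51 the log2 fold change was 0.09 (SE 0.099, edgeR adjusted p = 0.51), with a 95% interval of the fold of 0.918 to 1.24.

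Dhcr7 encodes dehydrocholesterol reductase, the last enzyme of 1 branch of the pathway, whose loss causes Smith-Lemli-Opitz syndrome in people. It lies on chromosome 7, from 143823145 to 143848410 (ENSMUSG00000058454). It stood at 3.7, 4.2, 3.99, 5.56 and 6.23 CPM in Visudyne 1 to 5, against 5.06, 5.28, 4.8, 6.82 and 4.02 CPM in vehicle 6 to 10. Visudyne 1 and 3 were under every vehicle library, and Visudyne 2, 4 and 5 lay within the vehicle range. For Dhcr7 the log2 fold change was -0.13 (SE 0.17, edgeR adjusted p = 0.59). Its 95% interval of the fold, 0.703 to 1.18, was the widest of the 7 enzymes, and its counts, 102 to 268, were the lowest.

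Srebf2, the regulator of the other genes, lies on chromosome 15, from 82147181 to 82205379 (ENSMUSG00000022463). It stood at 9.67, 11.8, 12, 12.7 and 16.1 CPM in Visudyne 1 to 5, against 16.5, 15, 13.6, 19.1 and 11.3 CPM in vehicle 6 to 10. Of the Visudyne libraries 4 were below the vehicle mean and Visudyne 5 was above it. The means were 12.5 ± 2.33 CPM in the Visudyne libraries and 15.1 ± 2.93 CPM in the vehicle libraries (SD, n = 5 each). The log2 fold change of -0.28 (SE 0.15, edgeR adjusted p = 0.18) was the most negative of the 8. Without Visudyne 5 it was -0.40 and the gene was called, just inside the threshold (edgeR adjusted p = 0.0496). In that fit 5047 of 16017 tested genes were called. Srebf2 transcript level is not the level of the cleaved SREBP2 protein, which was not measured.

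**Figure D2:**
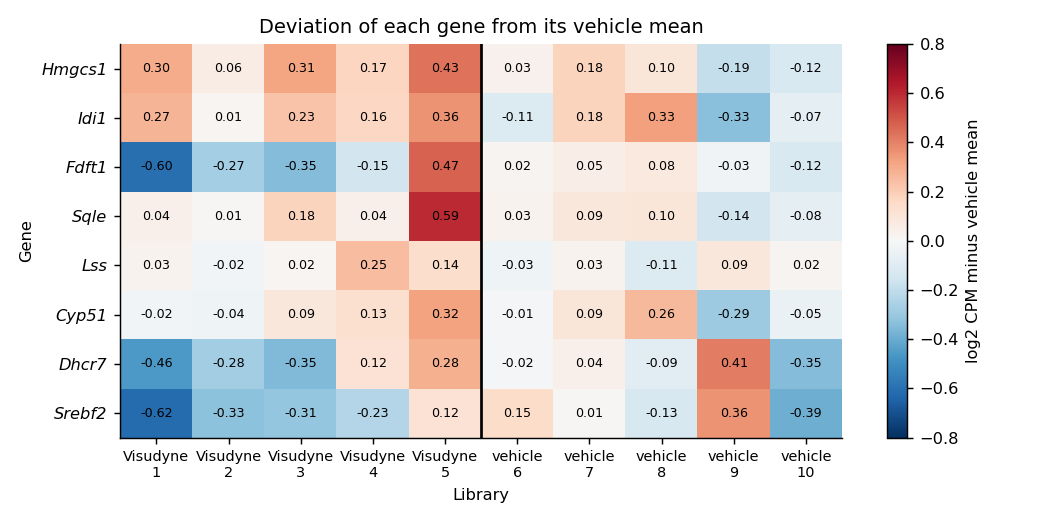
log2 CPM of each gene in each library minus the gene's mean in vehicle, with the 5 Visudyne libraries to the left of the black line and the 5 vehicle libraries to the right. The column of Visudyne 5 is above 0 in all 8 genes, while Fdft1, Dhcr7 and Srebf2 are below 0 in Visudyne 1 to 3.

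Compared per kilobase of annotated exon, levels spanned a wide range. Hmgcs1 was the most abundant, with a median over the 10 libraries of 40.1 CPM per kilobase and a range of 32 to 49.3. Idi1 followed at 17.6 and Cyp51 at 14.3, and their ranges overlapped (12.4 to 20.1 and 11.4 to 17.3 CPM per kilobase). Fdft1 at 8.69 and Sqle at 8.48 could not be ordered either, with ranges of 6.03 to 12.7 and 7.47 to 12.5 CPM per kilobase. Srebf2 at 1.82 and Lss at 1.57 overlapped likewise, and Dhcr7 was lowest at 0.847 CPM per kilobase. Per kilobase of the longest transcript alone, the median of Sqle (10.5) was above that of Fdft1 (9.93), and Dhcr7 (1.75) came closer to Lss (2.43).

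The summed level of the 8 genes was 435.6, 400.4, 453.3, 437.3 and 537.1 CPM in Visudyne 1 to 5, against 407.4, 444, 445.9, 363.7 and 376.7 CPM in vehicle 6 to 10. Visudyne 5 was the highest of the Visudyne libraries in 7 of the 8 genes and the highest of all 10 libraries in 5 of them. In the vehicle group the lowest library was vehicle 9 in 4 genes and vehicle 10 in 3. Visudyne 5 is 1 of the 2 libraries with high choroid plexus markers. The other, Visudyne 3, had more of these markers and a summed level of the 8 genes of 453.3 CPM. What part the choroid plexus content has in the level of Visudyne 5 was not tested. The microglia markers summed to 222.3 CPM in Visudyne 5, against 188.1 to 212.2 CPM in the other Visudyne libraries and 163.3 to 191.7 CPM in vehicle, and their part was not tested either.

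How the 8 genes varied together was described on log2 CPM centred on each group's mean, so that the group difference played no part, over the 10 libraries, which share their TMM scaling and GC trends. Hmgcs1, Idi1, Cyp51 and Sqle varied together, as in Cyp51 with Idi1 (Pearson r = 0.89), Hmgcs1 with Idi1 (0.84) and Hmgcs1 with Sqle (0.79). Dhcr7 and Srebf2 varied together (0.91), while Idi1 and Srebf2 did not (-0.24). Fdft1 was closest to Sqle (0.84), Dhcr7 (0.72) and Srebf2 (0.70) and farther from Cyp51 (0.62), Hmgcs1 (0.42) and Idi1 (0.29), and it was the gene nearest to the mean of the other 7 (0.86). Lss was the farthest from that mean (0.18), though its r with Dhcr7 was 0.68. In the mean of the 8 standardised levels Visudyne 5 stood at 1.48, and the next in size was Visudyne 2 at -0.79. Visudyne 5 thus weighs heavily in these values.

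Among 11900 other protein-coding genes that averaged at least 1 CPM, the 5 most like the average of the 8 genes by the same centred measure were Fnta, Insig1, Fcer1g, Pdrg1 and Itgb5. Their Pearson r over 10 libraries was 0.93 for Fnta, 0.92 for Insig1, 0.92 for Fcer1g, 0.92 for Pdrg1 and 0.91 for Itgb5. Insig1 encodes the sterol sensor that retains SREBP2 and is itself a known SREBP target. Fnta encodes a subunit of protein farnesyltransferase, which uses farnesyl pyrophosphate of the same pathway. Fcer1g encodes an immune receptor chain found in microglia. These are the highest of many values in a small number of libraries, and Visudyne 5 weighs heavily in the average they were compared with.

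The sign of the difference followed GC content in these 8 genes. The 5 genes with the lowest GC in their longest transcript had estimates above 0, and these were Idi1 (41.9%), Hmgcs1 (43.1%), Cyp51 (46.2%), Sqle (48.6%) and Lss (48.7%). The 3 with the highest had estimates below 0, and these were Fdft1 (51.8%), Dhcr7 (52.8%) and Srebf2 (57.9%). All tested genes showed the same order. Their median log2 fold change was 0.26 in the quintile of lowest GC, 0.13 in the next, -0.001 in the middle, -0.18 in the one above it and -0.42 in the highest. In the lowest quintile 27.4% were called higher and 0.474% lower, and in the highest 0.884% were called higher and 29.9% lower. Hmgcs1 at 0.25 and Idi1 at 0.19 thus stood near the median of the quintile they belong to, and Srebf2 at -0.28 above the median of its own.

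With each library's trend in GC removed, the estimates drew together, with 7 above 0 and 1 below. Their median was 0.062, against 0.0038 over all tested genes. The log2 fold change was then 0.059 for Hmgcs1 (95% interval -0.14 to 0.26), -0.030 for Idi1, 0.0061 for Cyp51 and 0.0030 for Fdft1. It was 0.19 for Sqle, 0.10 for Lss, 0.065 for Dhcr7 and 0.16 for Srebf2 (95% interval 0.0045 to 0.31, edgeR adjusted p = 0.20). Idi1, Fdft1, Dhcr7 and Srebf2 thus had the opposite sign with the trend removed. None of the 8 genes was called, in a fit that called 465 of 15938 tested genes. A ratio of counts within a library needs no scaling between libraries. There were 14.1 to 21.3 counts of Hmgcs1 per count of Srebf2 in the Visudyne libraries and 7.71 to 13.6 in the vehicle libraries, with no overlap. This pair, with the most positive and the most negative estimate of the 8, was chosen after its values were seen. It lies at nearly opposite ends of GC among the 8 and is given with no test. How many other pairs of genes do not overlap was not counted. With the GC trend removed the estimate of Hmgcs1 was below that of Srebf2. What part GC has in the ratio was not tested.

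**Figure D3:**
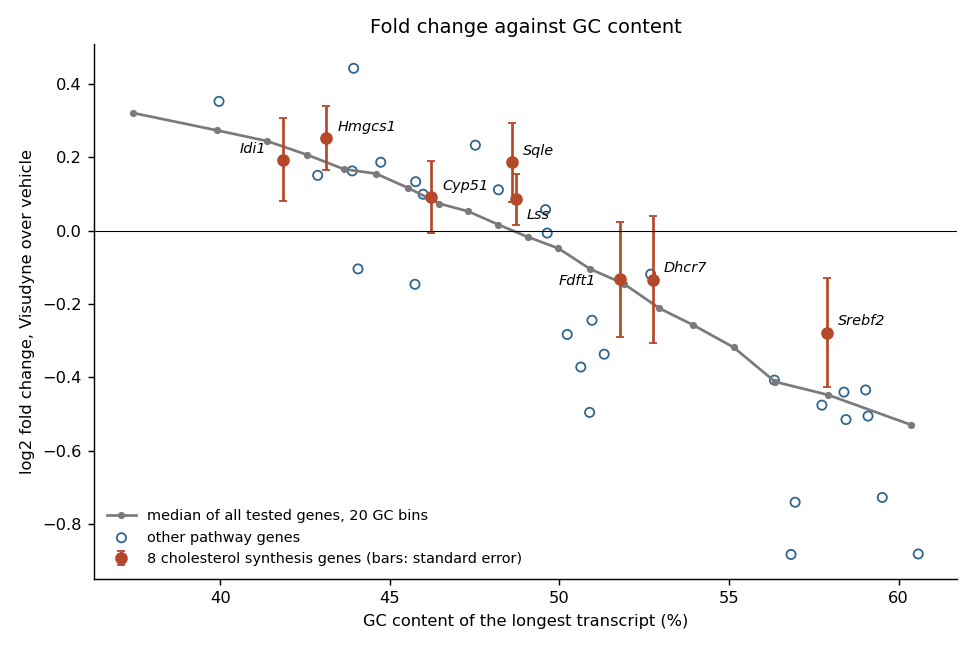
log2 fold change of Visudyne over vehicle against the GC content of the longest transcript, for the 8 genes (filled points with standard errors), 29 other pathway genes (open points) and the median of all tested genes in 20 GC bins (line). The line runs from above 0 at low GC to below 0 at high GC. Of the 8 genes, Sqle, Lss, Srebf2, Hmgcs1 and Dhcr7 lie above it, Cyp51 and Fdft1 close to it, and Idi1 below.

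**Figure D4:**
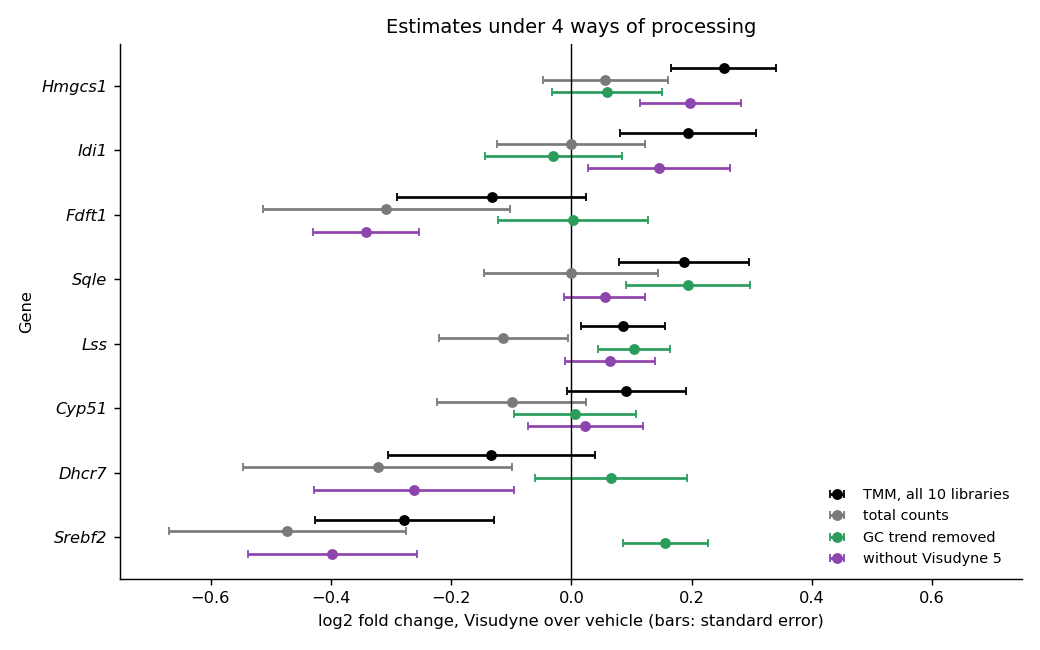
log2 fold change of each of the 8 genes with its standard error under 4 ways of processing the same table. Total counts in place of TMM move every gene down, as they do the median of all tested genes, removal of the GC trend moves Fdft1, Dhcr7 and Srebf2 to 0 or above, and leaving out Visudyne 5 lowers all 8.

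Another scaling shifted all genes alike. When library sizes were total counts, not scaled by TMM, the median of all tested genes was -0.19 and not 0.01 on the log2 scale, and that of the 8 genes was -0.11 in place of 0.09. Hmgcs1 was then at 0.056, while Sqle, Idi1, Lss and Cyp51, above 0 with TMM, were at -0.00078, -0.0011, -0.11 and -0.10. These 5 genes thus stayed above the median of all tested genes under both scalings. Leaving out Visudyne 5 lowered the estimates of all 8 genes and took the median of the 8 to 0.040.

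The remainder of the cholesterol pathway was described with 34 other genes, of which 32 passed the filter on low counts. Of these 3 were called higher and 5 lower in the Visudyne hippocampus, or 25% against 20.5% of all tested genes, and their median log2 fold change was -0.20. Among the 13 other synthesis enzymes, Ebp was called lower and 0 higher, while 12 were not called. Ebp, the sterol isomerase that emopamil binds, stood at 3.3, 4.39, 3.61, 4.49 and 4.57 CPM in Visudyne 1 to 5, against 5.45, 5.82, 6.09, 5.88 and 5.47 CPM in vehicle 6 to 10. The groups did not overlap, and the log2 fold change was -0.50 (SE 0.11, edgeR adjusted p = 0.025). Of the 8 called genes, Ebp was the only one also called with the GC trend removed (-0.39, edgeR adjusted p = 0.045). The fit with the trend removed called 465 of 15938 tested genes.

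The 13 other enzymes split by GC content as the 8 genes did. The 5 with an estimate above 0 had a GC content of 42.9% to 46.3%, and the 8 with an estimate below 0 had one of 49.6% to 59%.

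Of the 6 genes that control SREBP, Mbtps2 was called higher and Scap and Mbtps1 lower. The background for this and the following lists was 8.98% of all tested genes called higher and 11.5% lower. Mbtps2 encodes the second of the Golgi proteases that release SREBP, and averaged 42.7 ± 4.9 CPM in the Visudyne libraries and 33.5 ± 2.62 CPM in the vehicle libraries (log2 fold change 0.35, edgeR adjusted p = 0.027, n = 5 each). Mbtps1, which encodes the first of them, averaged 18.4 ± 1.69 CPM in the Visudyne libraries and 22.4 ± 2.09 CPM in the vehicle libraries (log2 fold change -0.28, edgeR adjusted p = 0.037, n = 5 each). Scap, the escort, averaged 8.05 ± 1.51 CPM in the Visudyne libraries and 11.4 ± 2.25 CPM in the vehicle libraries (log2 fold change -0.51, edgeR adjusted p = 0.043, n = 5 each). The GC content of these 3 was 40%, 50.2% and 59.1% in the order given. With the GC trend removed the estimates were 0.089 for Mbtps2, -0.21 for Mbtps1 and -0.034 for Scap. Insig1 was not called, at 62.2 ± 7.57 CPM in the Visudyne libraries and 57.6 ± 5.49 CPM in the vehicle libraries (log2 fold change 0.11, edgeR adjusted p = 0.37, n = 5 each), and its highest library was Visudyne 5 at 73.5 CPM.

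Of 5 tested genes of uptake and intracellular transport, Stard4, which carries sterols between membranes and is a known SREBP target, was called higher. It averaged 14.8 ± 2.95 CPM in the Visudyne libraries and 10.9 ± 1.55 CPM in the vehicle libraries (log2 fold change 0.44, edgeR adjusted p = 0.042, n = 5 each), and it was not called without Visudyne 5 (0.31, edgeR adjusted p = 0.056) or with the GC trend removed (0.27). Npc2, which binds cholesterol in the lysosome, was called lower, at 12.3 ± 2.18 CPM in the Visudyne libraries and 15.5 ± 1.1 CPM in the vehicle libraries (log2 fold change -0.34, edgeR adjusted p = 0.049, n = 5 each), and stood at -0.21 with the GC trend removed.

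Of 8 tested genes of export, esterification and turnover, Abca1 was called higher and Apoe lower. Abca1, the pump that loads cholesterol onto lipoproteins, stood at 58.5, 50.2, 60.9, 55.9 and 50 CPM in Visudyne 1 to 5, against 47.3, 46.4, 44.3, 47.9 and 48.5 CPM in vehicle 6 to 10. The groups did not overlap (log2 fold change 0.23, SE 0.065, edgeR adjusted p = 0.034). With total counts in place of TMM its estimate was 0.023 (edgeR adjusted p = 0.83). With the GC trend removed it was 0.21 (edgeR adjusted p = 0.086), so the gene was called in neither. Apoe, the main lipoprotein of the brain, averaged 55.7 ± 17.2 CPM in the Visudyne libraries and 92.2 ± 24.1 CPM in the vehicle libraries (log2 fold change -0.73, edgeR adjusted p = 0.041, n = 5 each). Its GC content is 59.5%, and removal of the GC trend brought its estimate to -0.26, while a fit with 1 surrogate variable gave -0.10. Fitting each library's GC slope put it at 0.18, but the slopes of the groups barely overlap, so that fit can hardly tell slope from group. Cyp46a1, the neuronal hydroxylase through which the brain exports cholesterol, averaged 9.47 ± 2.53 CPM in the Visudyne libraries and 13.5 ± 2.5 CPM in the vehicle libraries and was not called (log2 fold change -0.51, edgeR adjusted p = 0.058, n = 5 each). Each of the 8 calls was lost without Visudyne 3, vehicle 6 or vehicle 9, where 0 of the 32 genes were called. Of all tested genes, 27 of 16149, 10 of 16068 and 309 of 16089 were called in these 3 fits, so that 0 of 32 is near their background. The estimates of the 8 genes kept their sign and most of their size there, as for Ebp (-0.45 without Visudyne 3, -0.52 without vehicle 6 and -0.50 without vehicle 9), and for Apoe (-0.71, -0.69 and -0.59). The number called was 2 without Visudyne 1 (1119 of 16119 over all tested genes), 4 without Visudyne 2 (1826 of 16226) and 3 without Visudyne 4 (1127 of 16186). It was 13 without Visudyne 5 (5047 of 16017) and 3 without vehicle 7 (1567 of 16199). Without vehicle 8 it was 4 (2196 of 16119) and without vehicle 10 it was 12 (3644 of 16146).

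**Figure D5:**
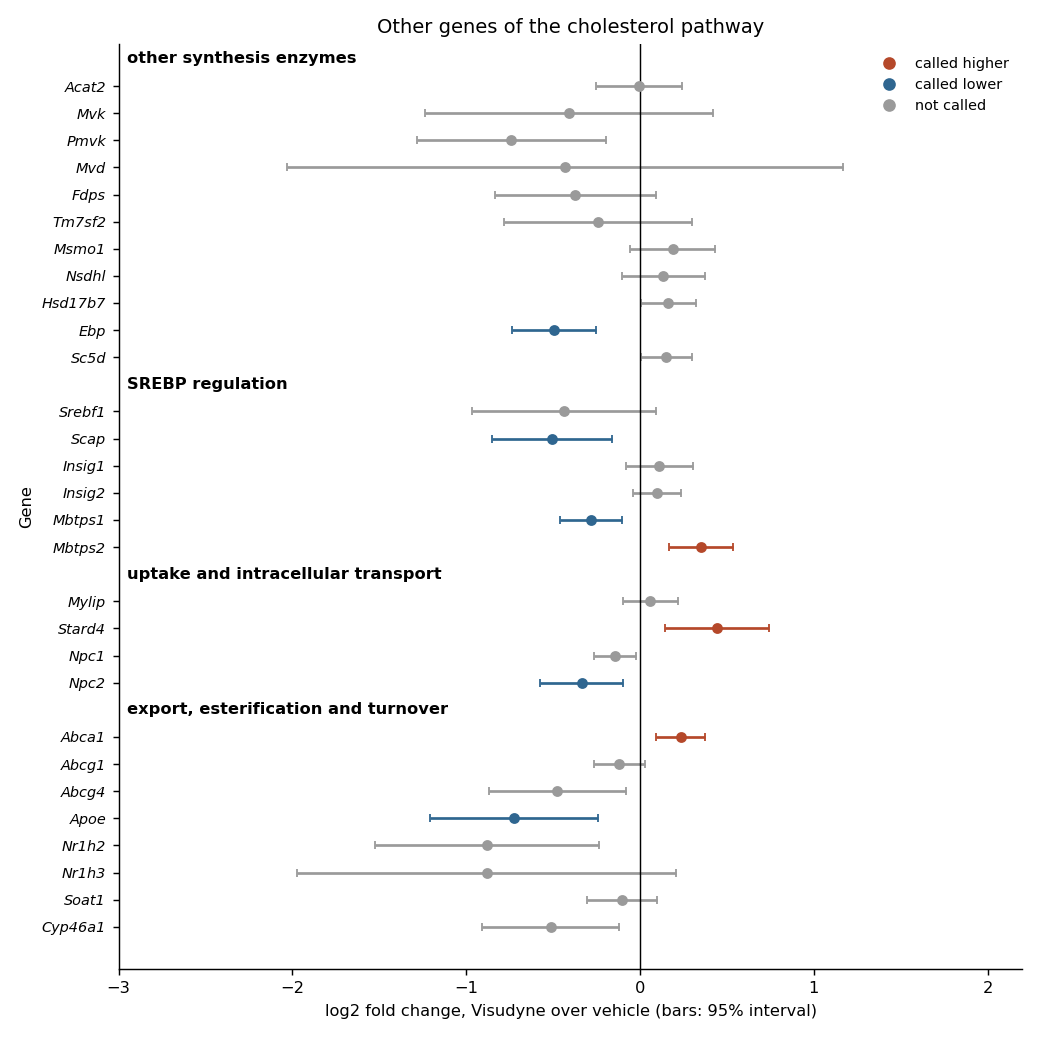
log2 fold change of Visudyne over vehicle with its 95% interval for 29 tested genes of the cholesterol pathway beyond the 8, grouped by role and coloured by call. The 3 genes called higher and 5 called lower are spread over the 4 roles.

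Markers of the cells that make cholesterol were present in every library, and their summed levels overlapped between the groups. The 8 oligodendrocyte markers summed to 2175 to 2598 CPM in the Visudyne libraries and 2251 to 3033 CPM in the vehicle libraries, with 4 of 7 tested members called lower and 0 higher, where 11.5% of all tested genes were called lower. Cnp and Sox10 had the smallest p (log2 fold changes -0.55 and -0.82), and their GC content was 54.8% and 61.8%. The 7 astrocyte markers summed to 4522 to 6060 CPM in the Visudyne libraries and 4468 to 5113 CPM in the vehicle libraries. Their estimates were above 0 in 5 and below 0 in 2. Sox9 was called higher (0.73, GC content 49.3%) and Aldh1l1 was not called (-0.75, edgeR adjusted p = 0.055, GC content 54.4%). The 6 neuron markers summed to 3083 to 3641 CPM in the Visudyne libraries and 2762 to 3178 CPM in the vehicle libraries. Their estimates were above 0 in 4 and below 0 in 2. Gad2 was called higher (0.27, GC content 44.1%) and Slc17a7 lower (-1.07, GC content 56.6%). For microglia, Tmem119 was called lower (-0.55, GC content 59%), while 1 of the other markers on that list of 6 was called higher. Of 4 tested choroid plexus markers Ttr was called higher (4.44) and Clic6 was not called (2.90, edgeR adjusted p = 0.051). The groups overlapped in both, and the summed level of the choroid plexus markers was high only in Visudyne 3 and 5 (410.7 and 295.7 CPM). The 5 endothelial markers summed to 51 to 59.1 CPM in the Visudyne libraries and 49.2 to 58.1 CPM in the vehicle libraries, with 0 called by edgeR and estimates above 0 in 2 and below 0 in 3. The smallest p were those of Cldn5 (-1.08, unadjusted p of 0.012, the only 1 of the 5 under 0.05) and Cdh5 (-0.31), and the median of the 5 was -0.051. The GC content was 60% for Cldn5 and 52.2% for Cdh5. No marker of the 6 lists was at 0 in all libraries. Whether the make-up of cell types has a part in the levels of the cholesterol genes was not tested.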

How the data were processed

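Hippocampal RNA was extracted with the RNeasy mini kit and sequenced from stranded total RNA libraries, as the labels' protocols state. The authors deposited the 10 libraries as 1 table of whole-number gene values, taken as estimated counts that had been rounded, since Salmon, FastQC and mm10 are named in the submitters' processing notes. The sources used here do not give the annotation, the summing to genes, the use of strand or any filter. Symbols, positions and exon lengths came from GENCODE M21 on GRCm38, which matched 27053 identifiers. GC content is that of the longest transcript, known for 15829 of 15938 tested genes.

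The main test was the two-sided quasi-likelihood F-test in edgeR 4.0.16 under R 4.3.3, after filterByExpr and TMM scaling, with group alone in the model. Calls needed an adjusted p (Benjamini-Hochberg) under 0.05. The SE is the log2 fold change over the square root of F, and 95% intervals use its t quantile. The alternatives were DESeq2 1.42.0, limma-voom (limma 3.58.1), total counts, upper-quartile factors, no filter, a loess trend in GC removed (span 0.3), the GC slope as a covariate, 1 surrogate variable (sva 3.50.0), mitochondrial genes left out, and each library left out in turn. Libraries of a group differed by more than sampling noise (chi-square per degree of freedom at least 13.6).

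The members, lists, motifs and alternatives were chosen with earlier results of these data known. Named are all 8 members, a panel of pathway genes (Insig1, Apoe, Abca1, Cyp46a1), every called pathway gene (at most 12), the 2 markers of smallest p in each list described, and the 5 genes most like the members. Another 3 panel genes and 1 marker are counted in their lists but are not reported here singly.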

Additional observations from a re-analysis of the deposited data

Results flagged for a closer look

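Sqle in Visudyne 5 stood at 69.2 CPM, and the nearest Visudyne library was at 51.8 CPM. The gap is a larger part of the range of the 5 libraries (0.751) than Dixon's limit for 5 values (0.71). Of 16 such sets of 5 values, from 8 genes in 2 groups, this was the only 1 past the limit, and about 1 in 20 passes by chance.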

How the results depend on the processing

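No paired analysis was possible because the groups share no replicate numbers. Of 152 alternative estimates of the 8 genes, 134 kept their direction and their side of the threshold. The number of the 8 called was 1 with DESeq2, 0 to 2 when a library was left out (1 without Visudyne 2, 2 without Visudyne 5) and 0 in every other alternative. Over all tested genes, DESeq2 called 4480 of 15938, the fit without Visudyne 2 called 1826 of 16226, and that without Visudyne 5 called 5047 of 16017. The 32 other pathway genes gave 13 calls with DESeq2, 3 of 34 without a filter on low counts, 1 with the GC trend removed, 0 with the GC slope as a covariate, 0 with 1 surrogate variable, and 0 to 13 with 1 library left out. With total counts 12 of the 32 were called, 0 higher and 12 lower. Abca1 (0.023), Mbtps2 (0.14) and Stard4 (0.25) were then not called. Over all tested genes 3261 of 15938 were called, and 4480 with DESeq2, 2075 of 27343 without a filter, 465 with the GC trend removed, 0 with the GC slope as a covariate by edgeR (1050 had an unadjusted p under 0.05), 1 with 1 surrogate variable and 10 to 5047 with 1 library left out. With total counts 196 were called higher and 3902 lower, in place of 1432 and 1829. Estimates that changed sign were, with total counts, Sqle -0.00078, Lss -0.11, Cyp51 -0.10, Idi1 -0.0011 and Insig1 -0.078. With the GC trend removed they were Dhcr7 0.065, Fdft1 0.0030, Idi1 -0.030 and Srebf2 0.16. With the GC slope as a covariate they were Dhcr7 0.43, Fdft1 0.29, Srebf2 0.29, Apoe 0.18, Cyp46a1 0.16 and Scap 0.11. With 1 surrogate variable they were Dhcr7 0.27, Fdft1 0.15 and Srebf2 0.11. The cause was not tested. The GC slopes of the groups barely overlap, so the fit with the slope as a covariate can hardly tell slope from group. All 8 estimates were above 0 with the GC slope as a covariate (median 0.26, against 0.018 over all tested genes). The same held with 1 surrogate variable (median 0.15, against 0.0018). An unadjusted p under 0.05 by edgeR was found for 3 of the 8 with the slope and for 0 with the surrogate variable. With 102 to 268 counts, Dhcr7 has the largest counting error of the 8.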
